A study of Homo sapiens with 8 samples.

Results

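*HHEX* and the 5 genes of the Groucho family of corepressors, *TLE1*, *TLE2*, *TLE3*, *TLE4* and *AES*, were followed in knockdowns of HCT-116, a human colorectal cancer cell line. These 6 genes were taken by their symbols from the 20030 gene rows of each library. The RNA-seq data held 8 libraries of these cells after siRNA transfection. There were 2 libraries with the control siRNA (siNC), 3 libraries with 3 different siRNAs against *HHEX* (siHHEX 1 to 3), 2 libraries with 2 different siRNA pairs against *YAP1* and *WWTR1*, the gene of TAZ (siYAP/TAZ 1 and 2), and 1 library with siRNAs against the 4 TEAD genes (siTEAD1/2/3/4). All groups share the same parental cells, and the replicates of siHHEX and of siYAP/TAZ differed in siRNA, so that the spread within these groups holds both library and siRNA differences. In siTEAD1/2/3/4, 1 siRNA was directed against *TEAD1*, *TEAD3* and *TEAD4* together and another against *TEAD2*. The methods list these siRNAs, and the titles number the libraries without naming an siRNA. That each siHHEX and siYAP/TAZ library received the siRNA of its own number was inferred. The siHHEX 3 library alone carries its target under a different label field. On this reading the libraries within siHHEX and within siYAP/TAZ were separate transfections. The labels do not say whether the 2 siNC libraries came from separate cultures, so the spread between those may be technical. The p-values measure only the spread between the libraries at hand.

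HHEX is a homeodomain transcription factor of early endoderm, blood and vessel development. It is best known as a repressor that binds DNA and brings in TLE proteins through a short motif near its N-terminus. TLE1 to TLE4 do not bind DNA themselves. They assemble through an N-terminal domain, bind the repression motifs of many transcription factors with a C-terminal WD40 domain and recruit histone deacetylases. AES, now named TLE5, has only the N-terminal part and lacks the WD40 domain, and is often described as a modulator or antagonist of the full-length proteins. YAP and TAZ are coactivators of the Hippo pathway that act through the TEAD transcription factors, and the study asked whether HHEX works with them in colorectal cancer cells.

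The sites of the siHHEX siRNAs are shown because the replicates of the knockdown differ in them. All lay in exon 4 of 4 of the transcript HHEX-201 (1724 bases), on the plus strand of GRCh38. The sites are printed as the transcript has them, 19 bases each, 5′ to 3′, with T for U. In the first 2, capitals mark the stretch that pairs with bases 2 to 8 of the guide strand, the seed.
siHHEX 1: gtgatcagaggCAAGATTt
siHHEX 2: ggatagctctcAATGTTCg
siHHEX 3: cccacttaatggaaaggca
The siHHEX 1 site was at chr10:92694599-92694617 and the siHHEX 2 site at chr10:92694648-92694666, both in the coding sequence. The siHHEX 3 site was at chr10:92695158-92695176, in the 3′ UTR. Of the 3 other annotated *HHEX* transcripts, 2 held the first site, 2 the second and 1 the third.

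Expression was given as FPKM, fragments scaled by the length of the gene and the total of the library. The FPKM values of a library summed to between 331663 in siYAP/TAZ 1 and 383423 in siHHEX 3. Depth was unknown, since the low values of a library had no common step that could stand for 1 read (at most 13 of 283 low genes shared 1 ratio to siNC 1), and no interval for counting error can be given. Changes were tested with limma on log2(FPKM + 1) over 10677 genes that reached 1 FPKM in 2 or more libraries, with Benjamini-Hochberg adjustment over all of them. A change on this scale understates that of genes with low values. Of the 6 genes, 5 were tested. Permuting 2 against 3 libraries exactly does not allow a p of 0.05, so that the tests rest on the spread that limma shares between genes. In bulk RNA, fewer cells that express a gene and less RNA per cell cannot be told apart.

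*HHEX*, at chr10:92689955-92695647, was the gene that the siHHEX siRNAs were aimed at. Its level was 8.60 and 9.06 FPKM in siNC. In siHHEX 1, 2 and 3 it was 3.25, 3.54 and 1.85 FPKM. All 3 siHHEX values lay below both siNC values. The lowest was in siHHEX 3, matched by its number to the siRNA against the 3′ UTR. The mean fell from 8.83 ± 0.327 FPKM (SD, n = 2) to 2.88 ± 0.907 FPKM (SD, n = 3), which left 32.6% of the siNC level. The log2 change was -1.37 (SE 0.217, 95% interval -1.86 to -0.88, adjusted p = 0.0054 from limma), the 14th lowest of all tested genes. In the same comparison 32.9% of tested genes had an adjusted p under 0.05, 16.9% of all tested genes were lower with such a p, and 33.8% had all siHHEX values below both siNC values, so that passing the test was common in siHHEX while a change of this size was not. The criterion of the study was a fold change over 2 with a p under 0.05, from DESeq. Here it was applied to the limma change in log2(FPKM + 1) and the unadjusted limma p. So applied, *HHEX* was among the 0.927% of tested genes that were lower. With 1 siNC library left out, the change was -1.40 without siNC 1 and -1.34 without siNC 2, and its adjusted p rose to 0.0746 and 0.0637 (limma).

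In siYAP/TAZ, *HHEX* was at 4.80 and 7.12 FPKM. Both values lay below the siNC values and above all siHHEX values, with a mean of 5.96 ± 1.64 FPKM (SD, n = 2). The log2 change was -0.52 (SE 0.238, 95% interval -1.05 to 0.017) and did not pass the test (adjusted p = 0.196 from limma). It was -0.28 without siYAP/TAZ 1, the library with the lower value. In this comparison 8.28% of tested genes had an adjusted p under 0.05, 6.15% higher and 2.13% lower, and 24.8% had both siYAP/TAZ values below both siNC values. In the single siTEAD1/2/3/4 library *HHEX* was at 7.75 FPKM, 87.7% of the siNC mean, with no replicate to test it. All 3 knockdowns were set against the same siNC libraries. The direct test of siHHEX against siYAP/TAZ gave a log2 difference for *HHEX* of -0.85 (SE 0.217, adjusted p = 0.016 from limma), where 39.3% of tested genes passed. Without siYAP/TAZ 2 this difference was -0.61 with an adjusted p of 0.132 (limma).

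The knockdown targets other than *HHEX* were read to check the labels. *YAP1* was at 20.2 and 19.7 FPKM in siNC and at 6.90 and 8.39 FPKM in siYAP/TAZ, both below siNC. Its siYAP/TAZ mean was 38.3% of the siNC mean, but the log2 change of -1.28 did not pass (adjusted p = 0.0681 from limma). The test uses 1 spread for all groups, and the SD of *YAP1* was 63.9% of its mean in siHHEX against 13.8% in siYAP/TAZ. After the GC and length correction the *YAP1* change in siYAP/TAZ was -1.39 and passed (adjusted p = 0.0349 from limma). *WWTR1* fell by 1.1 on the log2 scale in siYAP/TAZ (adjusted p = 0.0156 from limma). In the library labelled siTEAD1/2/3/4, *TEAD1*, *TEAD2* and *TEAD4* were at 48.4%, 72.0% and 26.7% of the siNC mean, whereas *TEAD3* was at 127% of it. *TEAD3* thus went against the label of that library. In siHHEX, *YAP1* was at 5.77, 17.4 and 6.93 FPKM, and only siHHEX 2 was near siNC.

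**Figure D1:**
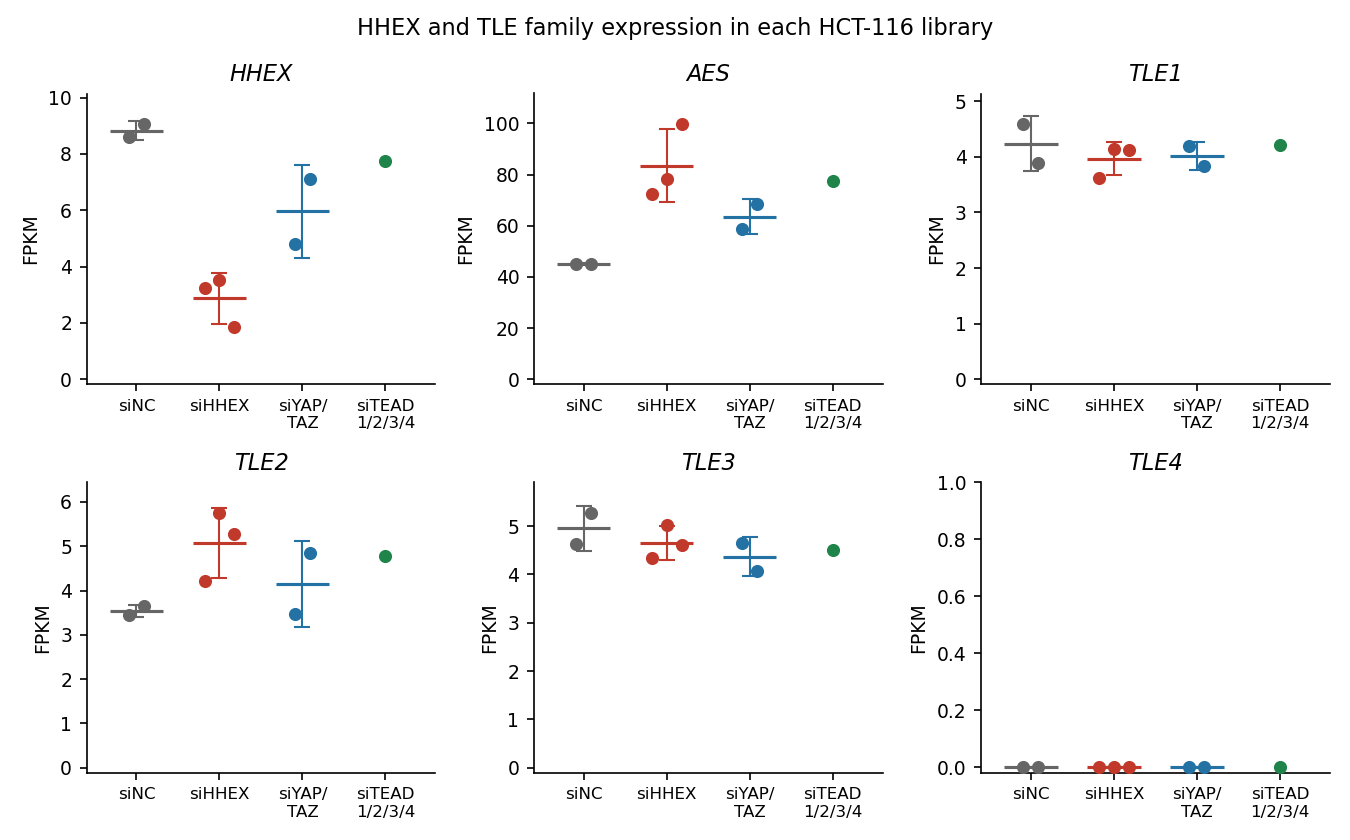
FPKM of each gene (y axis, from 0) in the 8 libraries by group (x axis), with points for libraries, wide bars for means and whiskers for the SD in groups of 2 or 3 libraries. *HHEX* was lowest in siHHEX, *AES* was higher in every knockdown library than in siNC, *TLE1* and *TLE3* in siHHEX and siYAP/TAZ overlapped siNC, and *TLE4* was listed at 0 throughout. Of all tested genes, 33.1% had every siHHEX value above both siNC values, and 42.9% had both siYAP/TAZ values above them.

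*AES*, at chr19:3052910-3063107 on the minus strand, was the only TLE family gene whose change passed the test with the values as deposited. Its level was 45.2 and 44.9 FPKM in siNC. It was 72.5, 78.1 and 99.7 FPKM in siHHEX 1, 2 and 3, with every value above siNC. The highest was in the library with the lowest *HHEX*, but siHHEX 2 was above siHHEX 1 in *HHEX* (3.54 against 3.25 FPKM) as well as in *AES*. The *AES* mean rose from 45.0 ± 0.261 FPKM (SD, n = 2) to 83.5 ± 14.4 FPKM (SD, n = 3), 1.85 times siNC, and the log2 change was 0.86 (SE 0.148, 95% interval 0.53 to 1.19, adjusted p = 0.00669 from limma). It stood 190th from the highest of 10677 genes. In siHHEX 16.0% of tested genes were higher with an adjusted p under 0.05, and 33.1% had all siHHEX values above both siNC values. The adjusted p of *AES* was 0.0852 without siNC 1 and 0.0739 without siNC 2 (limma). After correction for GC content and transcript length its change was 0.46 with an adjusted p of 0.0518 (limma).

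*AES* was also high in the other knockdowns. In siYAP/TAZ 1 and 2 it was at 58.6 and 68.5 FPKM, both above siNC and below siHHEX. Its log2 change there was 0.48 (SE 0.162, 95% interval 0.12 to 0.85) with an adjusted p of 0.0919 from limma, and 42.9% of tested genes had both siYAP/TAZ values above both siNC values. Without siHHEX 3, which enters only the shared spread, the adjusted p was 0.0379 (limma). In siTEAD1/2/3/4 *AES* was at 77.4 FPKM, 1.72 times the siNC mean, a log2 change of 0.77. This was the 132nd highest change of that library, in which 4.15% of tested genes were more than 1.5-fold above the siNC mean. The test of siHHEX against siYAP/TAZ gave 0.38 for *AES* (SE 0.148, 95% interval 0.046 to 0.71, adjusted p = 0.067 from limma), so that a difference between these knockdowns was not shown with the values as deposited. With each library scaled to an equal median it was 0.55 and passed (adjusted p = 0.0201 from limma).

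No tested full-length TLE gene passed in siHHEX or siYAP/TAZ with the values as deposited. *TLE1* (chr9:81583683-81689547, minus strand), the member whose binding to HHEX is best known, was at 4.59 and 3.89 FPKM in siNC. It was at 3.62, 4.15 and 4.13 FPKM in siHHEX, at 4.19 and 3.83 FPKM in siYAP/TAZ and at 4.21 FPKM in siTEAD1/2/3/4. The groups overlapped, and the log2 change was -0.075 in siHHEX (95% interval -0.36 to 0.21, adjusted p = 0.657) and -0.063 in siYAP/TAZ (95% interval -0.38 to 0.25, adjusted p = 0.811), both from limma. *TLE3* (chr15:70047790-70098176, minus strand) was at 4.63 and 5.28 FPKM in siNC. It was at 4.33, 5.03 and 4.60 FPKM in siHHEX, at 4.66 and 4.08 FPKM in siYAP/TAZ and at 4.50 FPKM in siTEAD1/2/3/4. Its log2 change was -0.074 in siHHEX (95% interval -0.36 to 0.21, adjusted p = 0.664) and -0.15 in siYAP/TAZ (95% interval -0.46 to 0.17, adjusted p = 0.53), both from limma. These intervals hold decreases and increases of *TLE1* and *TLE3* alike, and no change was shown.

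*TLE2* (chr19:2997639-3047635, minus strand) had the largest siHHEX difference of the full-length genes in the values as deposited, and the smallest after the GC and length correction (0.046). It was at 3.45 and 3.64 FPKM in siNC. In siHHEX it was at 4.21, 5.76 and 5.27 FPKM, all above siNC, with a log2 change of 0.41 (SE 0.162, 95% interval 0.047 to 0.78) that did not pass the test (adjusted p = 0.0757 from limma). The siYAP/TAZ values were 3.47 and 4.84 FPKM, of which the first lay within the siNC values and the second above them. The siTEAD1/2/3/4 value was 4.79 FPKM. *TLE2* thus passed in neither comparison.

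*TLE4* (chr9:79571773-79726882, plus strand) was listed at 0 in all 8 libraries and was not tested. Whether this 0 is absence of the transcript or a failed estimate is not known from the values. None of 78 mitochondrial ribosomal protein genes, which all cells use, was listed at 0 in any library. *TLE6*, a divergent relative next to *TLE2*, was at 0.211 and 0.184 FPKM in siNC and between 0.208 and 0.769 FPKM in the knockdowns, below the level needed for a test.

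**Figure D2:**
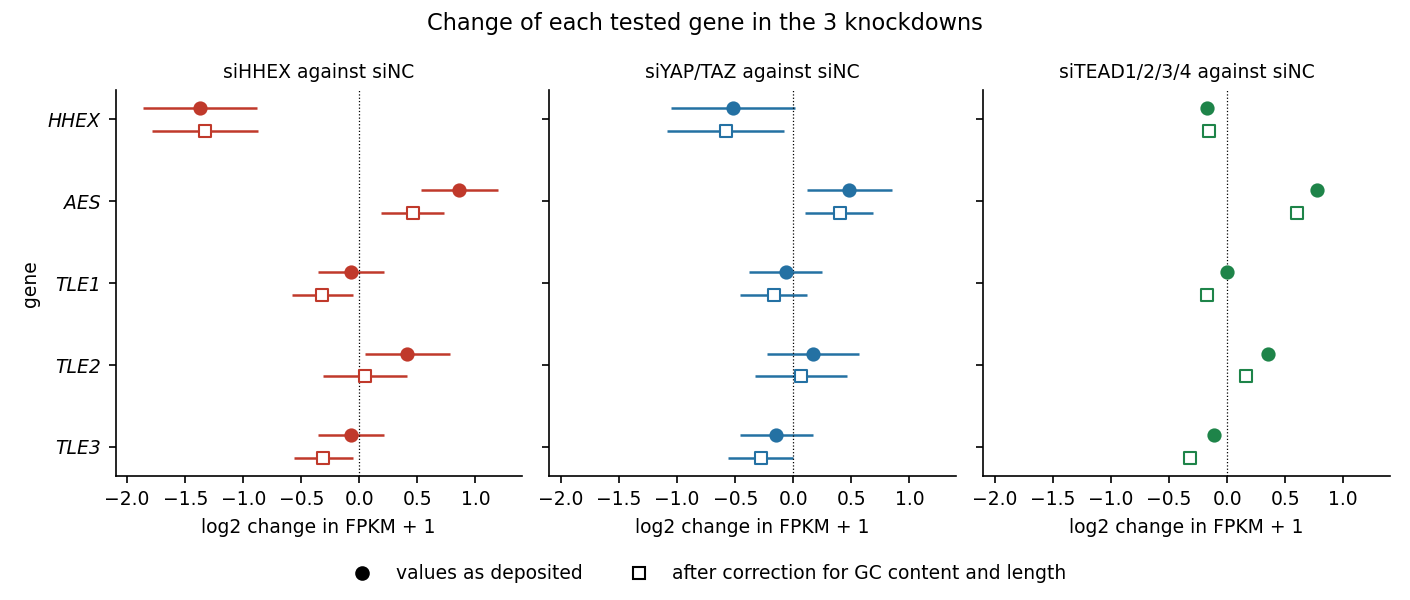
Change of each tested gene from the siNC mean (x axis, log2 of FPKM + 1) in the 3 knockdowns, with filled circles for deposited values, open squares for values corrected for GC content and length, and lines for 95% intervals, which the single siTEAD1/2/3/4 library lacks. *HHEX* in siHHEX kept its place after correction (-1.37 and -1.33), while *AES* in siHHEX moved from 0.86 to 0.46.

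The order of the levels was the same in both siNC libraries. *AES* was highest, followed by *HHEX*, *TLE3*, *TLE1*, *TLE2* and *TLE4*. The 3 full-length genes above 0 lay close together, between 3.45 and 5.28 FPKM, and over all 8 libraries the range of each overlapped those of the other two. *TLE1* varied least, 1.27-fold from its lowest to its highest library, against 4.91-fold for *HHEX*. In all 3 siHHEX libraries *HHEX* was below *TLE1*, *TLE2* and *TLE3*.

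Because FPKM is per length, the short and the full-length members can be set side by side. The summed level of *TLE1* to *TLE4* was 12.7 ± 0.0949 FPKM in siNC (SD, n = 2), 13.7 ± 1.41 FPKM in siHHEX (SD, n = 3), 12.5 ± 0.296 FPKM in siYAP/TAZ (SD, n = 2) and 13.5 FPKM in siTEAD1/2/3/4, with *TLE4* entering as the listed 0. The sum in siHHEX, from 12.2 to 14.9 FPKM, included the siNC values. *AES* made up 77.9% ± 0.228 of the summed FPKM of the 5 family genes in siNC (SD, n = 2). Its share was 85.6%, 83.9% and 87.7% in siHHEX, 82.6% and 84.3% in siYAP/TAZ and 85.1% in siTEAD1/2/3/4. Every knockdown library had a higher *AES* share than both siNC libraries, and the siHHEX and siYAP/TAZ shares overlapped. In FPKM, 33.1% of tested genes had all siHHEX values above both siNC values, and 42.9% had both siYAP/TAZ values above them. The percentage of genes above siNC in all 3 knockdowns was not computed.

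**Figure D3:**
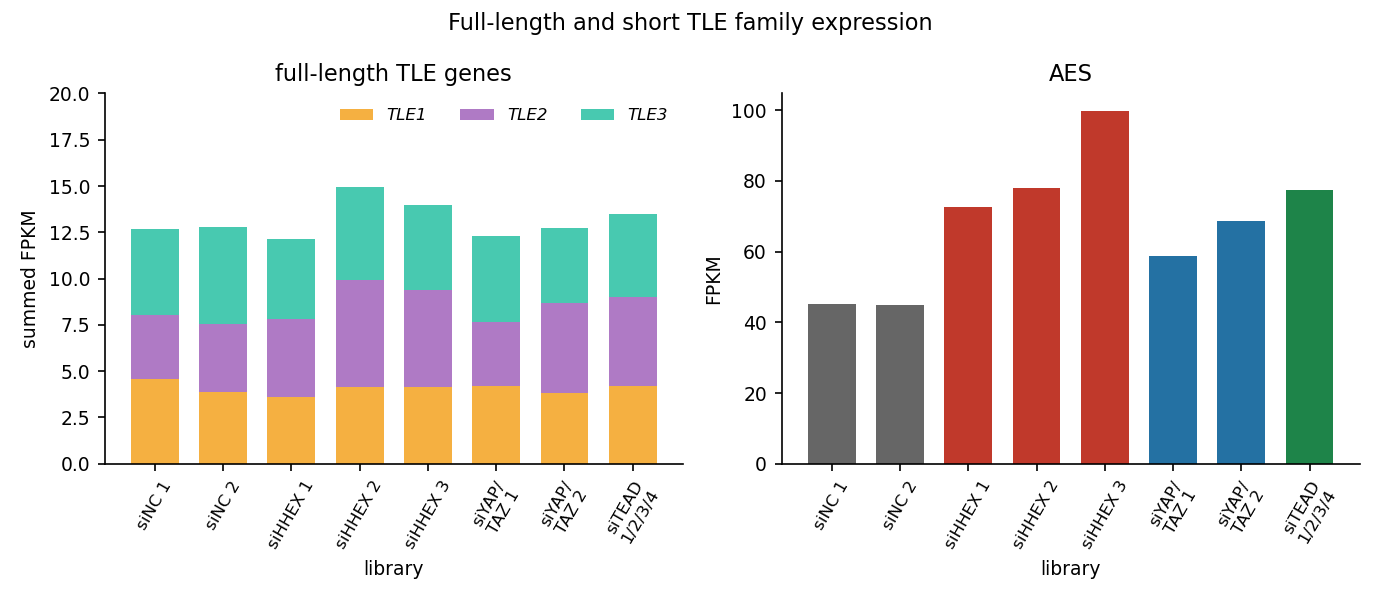
Stacked FPKM of *TLE1*, *TLE2* and *TLE3* (left, y axis from 0) and FPKM of *AES* (right, y axis from 0) in each of the 8 libraries (x axis); *TLE4* was at 0. The full-length sum stayed between 12.2 and 14.9 FPKM, while *AES* ran from 44.9 to 99.7 FPKM.

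The changes in siHHEX moved with the base composition of transcripts. GC content and length together accounted for 47.3%, 34.4% and 57.3% of the variance between tested genes in the change of siHHEX 1, 2 and 3, for 2.24% and 0.666% in siYAP/TAZ 1 and 2, for 9.0% in siTEAD1/2/3/4 and for 5.93% in the siNC libraries. The GC content of the canonical transcript was 61.2% for *AES*, 64.7% for *TLE2*, 58.6% for *TLE1* and 59.0% for *TLE3*, above the median of 49.1% over tested genes, and 46.8% for *HHEX*. Median changes by GC content ran in opposite directions, with 0.335, 0.292 and 0.482 in the 25% of genes highest in GC and -0.449, -0.237 and -0.554 in the 25% lowest in siHHEX 1, 2 and 3. After a spline correction of each library for GC content and length, the *HHEX* change in siHHEX was -1.33 (SE 0.203, adjusted p = 0.0148 from limma). The 95% interval of the corrected *AES* change of 0.46 was 0.19 to 0.73 (SE 0.117). *TLE2* came to 0.046, and *TLE1* and *TLE3* came to -0.32 and -0.31, each with an adjusted p of 0.124 (limma). With this correction 6.73% of genes passed in siHHEX and 11.4% in siYAP/TAZ.

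In siYAP/TAZ limma gave a corrected change of 0.40 for *AES* (adjusted p = 0.0781) and of -0.58 for *HHEX* (adjusted p = 0.115). In siTEAD1/2/3/4 the corrected *AES* change was 0.60. The corrected difference between siHHEX and siYAP/TAZ was 0.065 for *AES* (95% interval -0.20 to 0.33) and -0.75 for *HHEX* (adjusted p = 0.0537 from limma). What gave the trend on GC content, and its part in the *AES* change, was not tested.

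**Figure D4:**
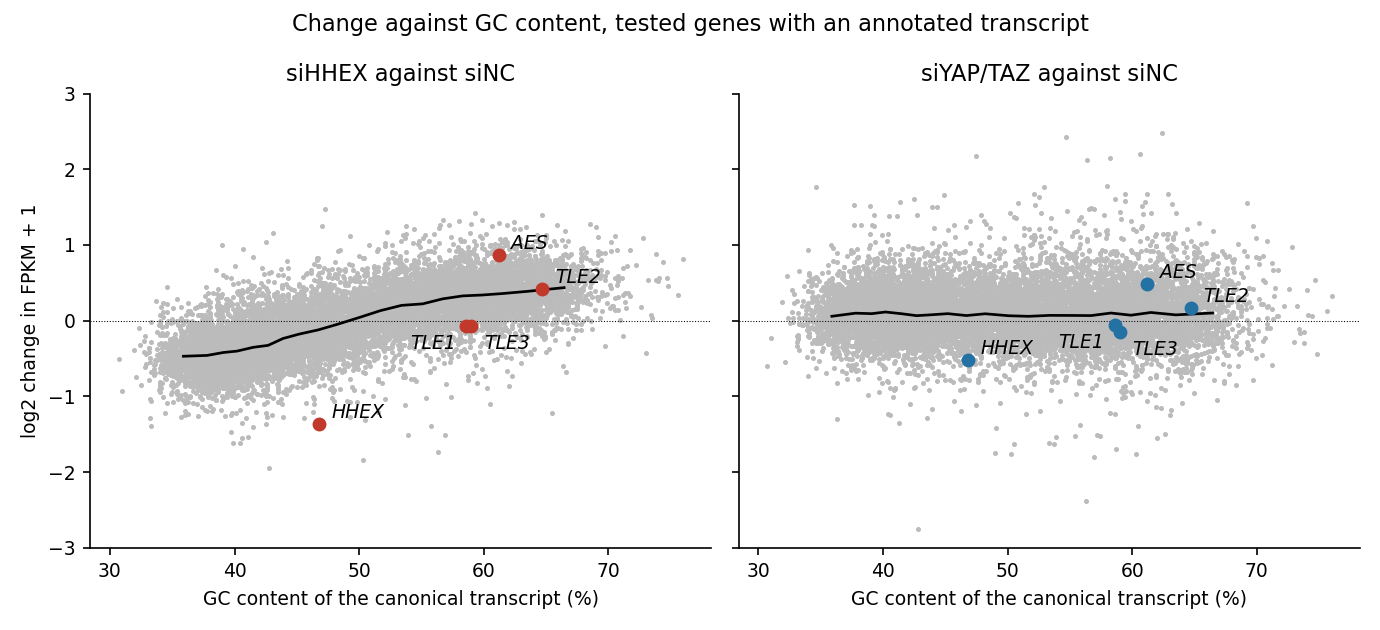
Change from siNC (y axis, log2 of FPKM + 1) against the GC content of the canonical transcript (x axis, %) for tested genes, in siHHEX and siYAP/TAZ, with the named genes as coloured points and the running median over bins of equal gene number as a black line. The line climbs with GC content in siHHEX and is flat in siYAP/TAZ, and *AES* (61.2% GC) lies above it and *HHEX* (46.8% GC) below it in both.

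TLE proteins are brought to DNA by transcription factors of several families, of which 23 were listed. Of these 10 were tested and 4 were listed at 0 in every library. In siHHEX 3 were higher and 1 was lower, with a median log2 change of -0.012 against -0.0055 over all tested genes. These 4 of 10 stand beside 32.9% over all tested genes (16.0% higher and 16.9% lower), a share of the same order. *TCF7L1*, a Wnt pathway factor that acts mainly as a repressor, rose by 0.71 (adjusted p = 0.0129 from limma), from 2.42 and 2.2 FPKM in siNC to 4.50, 5.36 and 3.50 FPKM. The Hairy-related factors *HES6* and *HES4* rose by 0.56 and 0.54 (adjusted p = 0.042 and 0.0487 from limma). *RUNX1*, a factor of blood development, fell by 0.80 on the log2 scale (adjusted p = 0.0255 from limma). It was at 3.09 and 2.53 FPKM in siNC and at 0.697, 1.73 and 1.22 FPKM in siHHEX, so that all siHHEX values lay below siNC.

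After the GC and length correction none of these 4 passed in siHHEX. *RUNX1* was then at -0.60 (adjusted p = 0.112) and *TCF7L1* at 0.38 (adjusted p = 0.215), while *HES6* was at 0.067 (adjusted p = 0.801) and *HES4* at -0.036 (adjusted p = 0.909), all from limma. In siYAP/TAZ no factor of the list passed, where 8.28% of all tested genes did, with a median of -0.082 against 0.082 over all tested genes. *RUNX1* came nearest, at 1.45 and 0.661 FPKM, with a log2 change of -0.91 (adjusted p = 0.0507 from limma). With the correction it was -1.03 (adjusted p = 0.0268 from limma), and *RUNX3*, named after its value was seen, was -0.53 (adjusted p = 0.0304 from limma), where 11.4% of all genes passed.

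Of 16 genes of other corepressor complexes, the NCoR, CtBP, SIN3, CoREST and BCOR complexes and class I histone deacetylases, all were tested. In siHHEX none was higher and 5 were lower, with a median log2 change of -0.11 against -0.0055 over all tested genes. The 5 of 16 are close to the 32.9% of all tested genes that passed in either direction, and 16.9% of all tested genes were lower. *TBL1XR1*, a WD40 subunit of the NCoR complex, fell by 1.09 on the log2 scale (SE 0.189, adjusted p = 0.00696 from limma). It went from 15.2 and 13.6 FPKM in siNC to 5.46, 8.38 and 5.24 FPKM in siHHEX. The CoREST scaffold *RCOR1*, the deacetylase *HDAC2* and the Polycomb-linked corepressor *BCOR* fell by 0.61, 0.59 and 0.53. The fifth was *CTBP2*, named after its value was seen, with -0.45 (adjusted p = 0.0402 from limma). *TBL1XR1* (-0.57, adjusted p = 0.0344) and *BCOR* (-0.61, adjusted p = 0.0315) also passed with limma after the correction, where 6.73% of all genes did. *RCOR1* (-0.37, adjusted p = 0.0924), *CTBP2* (-0.26, adjusted p = 0.187) and *HDAC2* (-0.11, adjusted p = 0.518) did not pass when corrected. The transcripts of *TBL1XR1* and *HDAC2* had a low GC content, 36.0% and 37.8%.

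In siYAP/TAZ 1 of the 16 corepressor genes passed, where 8.28% of all tested genes did, with a median of 0.048 against 0.082. This was the deacetylase *HDAC1*, which rose by 0.57 (SE 0.127, adjusted p = 0.0305 from limma), from 57.8 and 53.3 FPKM in siNC to 81.4 and 84.3 FPKM. After correction its change was 0.51 (adjusted p = 0.026 from limma), and *CTBP2*, again named after its value was seen, passed with -0.49. With this correction 11.4% of all genes passed in siYAP/TAZ.

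Proteins known to bind HHEX were a further list, of which 8 of 9 were tested. In siHHEX 1 was higher and 1 lower, beside 16.0% higher and 16.9% lower over all tested genes, with a median log2 change of 0.14. *JUN*, a subunit of AP-1, rose by 0.52 (adjusted p = 0.0461 from limma). *EIF4E*, the cap-binding translation factor, fell by 0.63 on the log2 scale (adjusted p = 0.0142 from limma). Neither passed after the correction, where *EIF4E*, with 34.5% GC, was at -0.18. In siYAP/TAZ none passed as deposited, where 8.28% of all tested genes did, with a median of -0.083 against 0.082 over all tested genes, and *JUN* had the largest change of 0.41 (adjusted p = 0.196 from limma). The corrected values, of which 11.4% passed over all genes, had 1 lower, the proteasome gene *PSMA7* (-0.42, adjusted p = 0.0325 from limma), named after its value was seen.

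**Figure D5:**
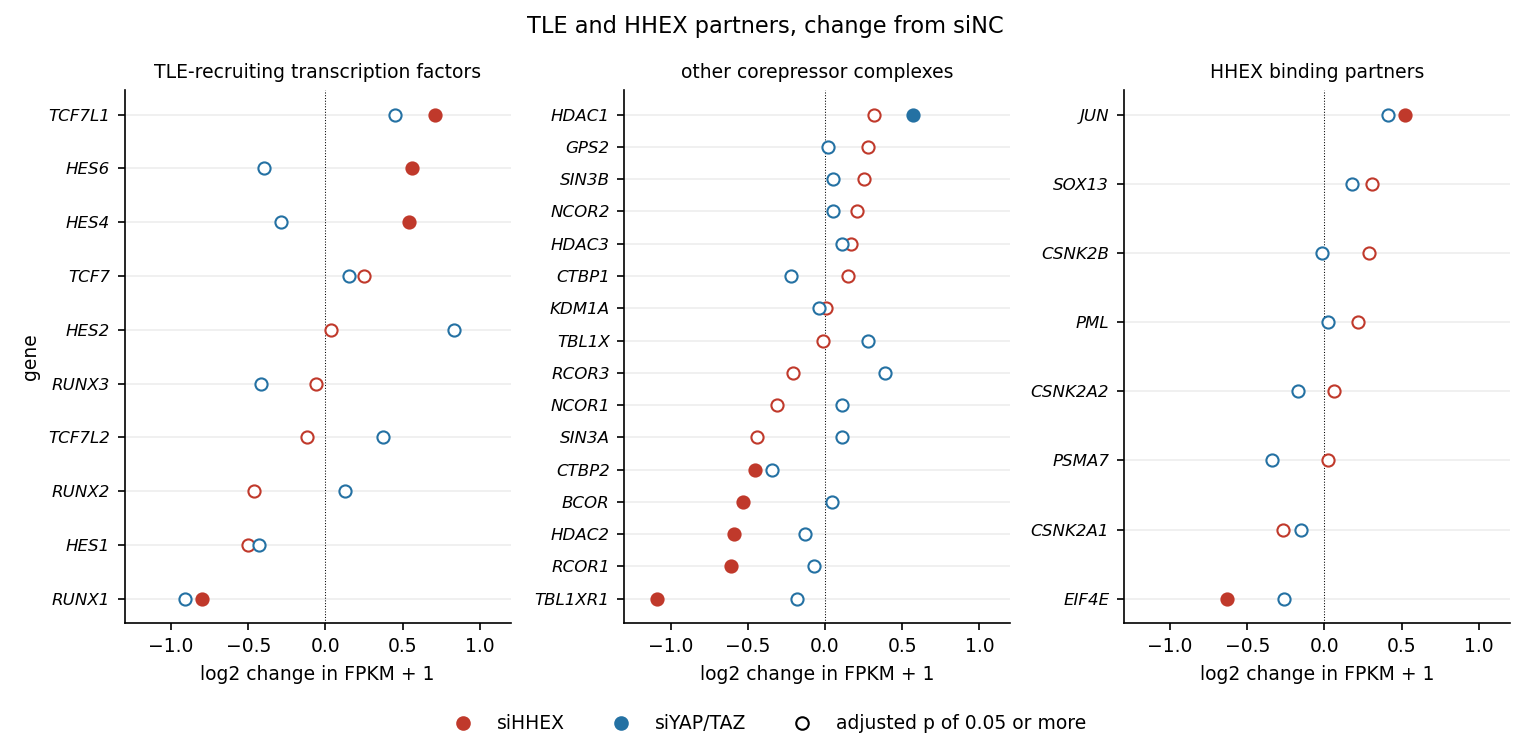
Change from the shared siNC libraries (x axis, log2 of FPKM + 1) of the tested genes of 3 lists (y axis, ordered by the siHHEX change), with siHHEX in red and siYAP/TAZ in blue, filled where the adjusted p was under 0.05. In siHHEX 4 TLE-recruiting factors, 5 corepressor genes and 2 HHEX partners passed, where 32.9% of all tested genes did, and in siYAP/TAZ only *HDAC1* did, where 8.28% of all tested genes did.

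A list of 7 genes that HHEX is known to regulate in other cells was made of genes it represses, except *ENG*, which it is also described to activate. Of these 2 were tested, and both were higher in siHHEX, as were 16.0% of all tested genes. *VEGFA*, a growth factor for vessels, was at 7.07 and 6.66 FPKM in siNC and at 11.1, 8.94 and 9.54 FPKM in siHHEX, a log2 change of 0.46 (SE 0.133, adjusted p = 0.0294 from limma). *CDKN2A*, which encodes cell cycle inhibitors, was at 5.77 and 5.98 FPKM in siNC and at 9.46, 8.0 and 8.33 FPKM in siHHEX, a log2 change of 0.48 (SE 0.148, adjusted p = 0.0366 from limma). All siHHEX values of both genes lay above siNC, as did those of 33.1% of tested genes. After the correction limma gave changes of 0.42 (adjusted p = 0.0752) and 0.018 (adjusted p = 0.947). In siYAP/TAZ neither passed, and the changes were -0.011 and -0.073. The untested genes of the list were *ENG*, *KDR*, *FLT1*, *ESM1* and *GSC*, and the last 2 were listed at 0 in every library.

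The cell line was checked with marker genes, since HHEX is also a gene of blood cells and endothelium. Of 7 colorectal epithelial markers 6 were tested. *KRT8* was the most abundant, between 897 and 1760 FPKM, *EPCAM* lay between 116 and 174 FPKM, and *VIL1* stayed at or below 0.0335 FPKM. The blood markers *PTPRC*, *SPI1*, *CD34* and *HBG1* stayed at or below 0.155 FPKM, and only *CD68*, which is not restricted to blood cells, was higher, between 3.52 and 7.33 FPKM. All 5 endothelial markers, among them *PECAM1* and *CDH5*, stayed at or below 0.133 FPKM. Of 4 fibroblast markers *COL1A1* reached 2.04 FPKM and the others stayed at or below 0.283 FPKM. No endothelial marker reached the level for a test, and neither *CD68* nor *COL1A1*, the only tested markers of blood cells and fibroblasts, passed in siHHEX or siYAP/TAZ. In siYAP/TAZ the keratins *KRT18* and *KRT8* fell by 1.22 and 0.88 on the log2 scale (adjusted p = 0.000861 and 0.00227 from limma), 2 of 6 tested markers where 2.13% of all tested genes were lower, and the other 4 did not pass. The median of the 6 was -0.26 against 0.082 over all tested genes. *CDH1* and *CDX2* were at 0.30 and 0.073 (adjusted p = 0.40 and 0.789 from limma). In siHHEX *EPCAM* and *KRT18* fell by 0.38 and 0.29 while *CDX2* rose by 0.42 (adjusted p = 0.0289, 0.0348 and 0.042 from limma), beside 32.9% of all tested genes that passed. After the correction only *KRT18* of these 3 passed in siHHEX (-0.68, adjusted p = 0.0044 from limma), and *EPCAM* and *CDX2* were at -0.26 and 0.14 (adjusted p = 0.102 and 0.478). *KRT8*, named after its value was seen, also passed in siHHEX when corrected (-0.34, adjusted p = 0.0424 from limma).

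The genes with the most similar pattern over the 8 libraries, by Pearson's r on log2(FPKM + 1), are given as a description. For *HHEX* they were *PLAA* (0.994), *DNAJC2* (0.987) and *ANLN* (0.980), with transcripts of 39.0% to 39.8% GC. With GC content and length corrected, these r values were -0.168, 0.59 and 0.867. For *AES* they were *HARS* (0.992), *PHETA1* (0.982) and *KIF1C* (0.978), and after correction 0.963, 0.931 and 0.814. *HARS*, the histidyl-tRNA synthetase, ran from 38.6 to 55.4 FPKM. The nearest genes were *ALKBH1*, *RRP36* and *TMEM43* for *TLE1* (0.923, 0.917 and 0.882), *DDX24*, *FOXA3* and *NDRG2* for *TLE2* (0.945, 0.937 and 0.935) and *E2F5*, *RARA* and *ZNF142* for *TLE3* (0.934, 0.909 and 0.909). Corrected, these were -0.0206, 0.943 and 0.588 for *TLE1*, 0.237, 0.801 and 0.73 for *TLE2* and 0.721, 0.954 and 0.718 for *TLE3*. All points share the same 8 libraries, and in siHHEX the trend on GC content is shared too.

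Promoter windows of RefSeq on GRCh38.p14, from 250 bases before to 50 after a start site, were searched on both strands for 3 motifs. GGAATG, the core of the TEAD motif, was in 14.0% of all 35116 windows and in 1 of 2 *TLE2* windows. TGANTCA, the AP-1 motif, was in 7.71% of all windows and in none of the 6 genes. CAATTA, a homeodomain core, was in 7.38% of all windows and in 1 of 3 *TLE3* windows. The single *HHEX* and *TLE1* windows and both *AES* and both *TLE4* windows held none of these letters. The 2 matches are shown with 12 bases on either side, in the direction of the gene, with the motif in capitals. The *TLE2* match is in the window chr19:3047586-3047885 and starts at its base 160. The *TLE3* match is the reverse complement of the motif, in the window chr15:70096703-70097002, and starts at base 234.
TLE2: gaaagaactgcaGGAATGccaacatattta
TLE3: acatccggtgagTAATTGcaactcggttta
A match is only a stretch of letters, and whether TEAD or HHEX binds there was not tested.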

How the data were processed

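RNA-seq of 8 HCT-116 libraries was analysed. The authors deposited FPKM values, 1 for each gene in a library. The submitters' processing notes name Trimmomatic 0.36, HISAT2 2.0.5, Cufflinks 2.2.1 and HTSeq 0.9.1, and the methods name DESeq for differential expression. The genome build and annotation used for RNA-seq are not given in the sources used here. A test on counts could not be used on FPKM. Of 20030 rows, 10677 reached 1 FPKM in 2 or more libraries and were tested, and 9353 were not. In all, 27 rows carried a date in place of a symbol and were not renamed.

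Values were tested as log2(FPKM + 1) with limma 3.58.1 in R 4.3.3, in 1 fit of 8 libraries and 4 groups with a variance trend, and p-values were adjusted over all tested genes. The siTEAD1/2/3/4 library has no p. The fit was tested on simulated data, but no outcome is given here, and no conclusion rests on it. For the correction, natural splines with 4 degrees of freedom on GC content and log transcript length were taken off each library, for 10622 genes (99.5%) with a GENCODE transcript on GRCh38. *AES* was matched to its current symbol *TLE5* through RefSeq synonyms. The siRNA sites were located with the supplementary list, whose text as read differs from each site at 1 of 19 bases, and the bases printed are those of the transcript, which the methods also give.

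The members and gene lists were chosen with earlier results of these data known. Beside the members, the text names up to 4 genes of a list with the largest change among those with an adjusted p under 0.05 in siHHEX and in siYAP/TAZ (the largest if none passed), the 3 genes most like each member and the neighbouring genes. Results for the members were recomputed with a pseudocount of 0.1, no filter, only the groups compared, a replicate block and no variance trend. Median scaling, the GC and length correction with and without the block, and the criterion of the study were also used. The thresholds of that criterion were applied to the limma values, not to a DESeq fit. Each library of siNC, siHHEX and siYAP/TAZ was left out in turn, and siTEAD1/2/3/4 was set against each siNC library alone. The other genes were tested only as deposited and after the GC and length correction. Python 3.11.15, pandas 2.3.3, numpy 2.4.6 and matplotlib 3.10.9 were used.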

Additional observations from a re-analysis of the deposited data

How the results depend on the processing

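With 1 library left out at a time, the *HHEX* change in siHHEX ranged from -1.50 to -1.16, in siYAP/TAZ from -0.76 to -0.28 and between siHHEX and siYAP/TAZ from -1.09 to -0.61. The first lost its call without either siNC library, and the last lost it without siYAP/TAZ 2. The *HHEX* difference between siHHEX and siYAP/TAZ also lost its call with no filter (-0.85, adjusted p = 0.0624 from limma), after the GC and length correction (-0.75) and after this correction with the replicate block (-0.55, adjusted p = 0.077 from limma). *HHEX* in siYAP/TAZ gained a call only after the correction with the block (-0.58, adjusted p = 0.0454 from limma). The count of TLE family genes that passed in siHHEX, 1 with the values as deposited, was 0 to 1 with a library left out, 2 with median scaling, which added *TLE2*, 0 with the correction, with or without the block, and 0 under the criterion of the study. In siYAP/TAZ the count of 0 became 1 (*AES*) in a fit of only the groups compared, with the replicate block and without siHHEX 3 (0 to 1 over all libraries left out).

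These changes turned sign. With libraries left out, *TLE1* ranged from -0.17 to 0.022 in siHHEX and from -0.16 to 0.034 in siYAP/TAZ, above 0 without siNC 1. Its difference between siHHEX and siYAP/TAZ ranged from -0.065 to 0.041, above 0 without siHHEX 1 (0.039) or siYAP/TAZ 1, and was 0.16 with median scaling. *TLE2* ranged from -0.022, without siYAP/TAZ 2, to 0.36 in siYAP/TAZ, and its difference was -0.018 after the correction. *TLE3* ranged from -0.15 to 0.0049, without siNC 2, in siHHEX, and its difference ranged from -0.004, without siYAP/TAZ 2, to 0.15 and was -0.026 after the correction. The difference of *AES* was -0.009 after the correction with the block. None of these values that turned sign passed the test. In siTEAD1/2/3/4, which was not tested, *TLE1* was at -0.10 against siNC 1 alone and at 0.092 against siNC 2 alone. There *HHEX*, *TLE2*, *TLE3* and *AES* kept their sign against either siNC library. With median scaling the difference of *AES* gained a call (0.55, adjusted p = 0.0201 from limma). *AES* was higher in siHHEX (0.39 to 0.96) and in siYAP/TAZ (0.37 to 0.60) under all 15 alternatives. Apart from the construction of each alternative, the causes were not tested.

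Libraries with the same replicate number did not deviate together (r between -0.0704 and 0.0215). Since the siHHEX and siYAP/TAZ libraries also differed in siRNA, these r values cannot show whether the numbers pair the samples. The replicate block moved the count of passing TLE genes in siYAP/TAZ from 0 to 1, with an adjusted p of 0.049 for *AES* (limma).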

Other observations

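*TLE6*, *TLE2* and *AES* lie side by side on chromosome 19, with 2460 bases between the first 2 and 5275 bases between the last 2. *GNA11*, a G protein subunit gene 31255 bases beyond *AES*, was at 29.9 and 29.5 FPKM in siNC and at 46.8, 49.4 and 54.3 FPKM in siHHEX, a log2 change of 0.73 (SE 0.131, adjusted p = 0.00732 from limma). After the GC and length correction it was 0.43 and did not pass (adjusted p = 0.0662 from limma). In siYAP/TAZ it was at 23.4 and 29.5 FPKM, where *AES* was above siNC. *KIF11*, the mitotic kinesin gene 34560 bases from *HHEX*, was at 16.0 and 14.3 FPKM in siNC and at 8.97, 9.62 and 7.66 FPKM in siHHEX, and fell by 0.73 on the log2 scale (SE 0.136, adjusted p = 0.00812 from limma). Corrected, it was -0.28 and did not pass (adjusted p = 0.123 from limma). *EXOC6*, on the other side of *HHEX* at a distance of 131184 bases, had a log2 change of -0.27 (adjusted p = 0.179 from limma) that was 0.19 when corrected. In siYAP/TAZ *KIF11* and *EXOC6* had log2 changes of 0.054 and 0.14 (adjusted p = 0.851 and 0.624 from limma). Over all tested genes, 32.9% passed in siHHEX as deposited and 6.73% after the correction.

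Around the other genes, *RPLP1* rose by 0.39 in siHHEX (adjusted p = 0.0121 from limma), and *UACA* was at -0.41 (adjusted p = 0.0625 from limma), on either side of *TLE3*. *PSAT1*, next to *TLE4*, was at 0.22 (adjusted p = 0.158 from limma). Corrected, *RPLP1* was at 0.33 (adjusted p = 0.0451), *UACA* turned to 0.072 (adjusted p = 0.78) and *PSAT1* passed at 0.48 (adjusted p = 0.033), all from limma. These calls stand beside 32.9% of all tested genes as deposited and 6.73% after the correction. *SPATA31D4*, next to *TLE1*, was not tested.

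Among the knockdown targets in siHHEX, *TEAD1* fell by 1.25 and *YAP1* by 1.07 on the log2 scale (adjusted p = 0.00641 and 0.0429 from limma). *TEAD2* rose by 0.78 (adjusted p = 0.00709 from limma). In this comparison 32.9% of all tested genes passed. *WWTR1* and *TEAD3* were at -0.055 and 0.29 and did not pass (adjusted p = 0.82 and 0.094 from limma). After the GC and length correction *TEAD1* (-0.91) and *TEAD4* (-0.51) passed, where 6.73% of all genes did, and *YAP1* (-0.76) and *TEAD2* (0.47) did not. Corrected *WWTR1* (0.31) and *TEAD3* (-0.0075) did not pass either. As deposited *TEAD4* was at -0.11 and did not pass (adjusted p = 0.503 from limma). *TEAD4* fell by 0.63 in siYAP/TAZ (adjusted p = 0.025 from limma).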
